A study of Mus musculus with 8 samples.

Results

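Regions of the mouse genome that carried a strong peak of the fusion factor Oct4BiD, and no peak of any of the other 7 libraries, were examined in reprogramming mouse embryonic fibroblasts (MEFs), collected at day 3. Peaks of all 8 libraries were merged into union regions wherever they overlapped by at least 1 bp. The regions were chosen on measured values, namely an Oct4BiD peak score of 100 or more and the absence of a peak elsewhere, so their scores and their absence from the other lists are descriptions only. There were 16055 such regions among 306466 union regions, or 5.24% of them, and they made up 17.4% of the 92444 regions with an Oct4BiD peak. One of them lay off the placed chromosomes and is left out of all sequence and gene counts, which leaves 16054.

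The study mapped Nanog, Oct4, Sox2 and Nr5a2 by CUT&Tag, in which Tn5 transposase is tethered to a chromatin protein through an antibody and inserts sequencing adapters into the DNA nearby. The antibody was against the Flag epitope. Each factor was profiled once as the native protein and once as a fusion with BiD, the N-terminal part of SS18 that interacts with BRG1. BRG1 is the motor subunit of BAF, a remodeller of chromatin. The 8 groups (Nanog, NanogBiD, Oct4, Oct4BiD, Sox2, Sox2BiD, Nr5a2 and Nr5a2BiD) hold 1 library each, so no difference below has a replicate check. All used MEFs from E13.5 embryos of OG2 males, which carry a GFP reporter of Oct4, and 129 females, infected with pMXs retroviruses and moved to iCD3 medium. Retroviral delivery is not cell-type specific, and which other factors the same cells received is not given in the labels. The methods speak of replicates merged before peak calling, whereas the study's reporting summary says that CUT&Tag was done once.

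Oct4, encoded by Pou5f1, is a POU factor: its POU-specific domain and its homeodomain each contact a part of the octamer, ATGCAAAT. It also binds joint elements with Sox2 and a palindromic element named MORE as a dimer. In fibroblasts Oct4 is normally silent, and reprogramming relies on the delivered protein reaching sites that are closed in these cells. BAF is known for moving and evicting nucleosomes.

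The regions with the highest scores that held an octamer near the Oct4BiD summit are shown to let the site be seen in its surroundings. The 10 lines give the mm10 sequence of the plus strand from 50 bp before to 50 bp after the summit, read from the GRCm38 reference, with each octamer (ATGCAAAT, or ATTTGCAT where it lies on the minus strand) in capitals. Each line is named after the nearest protein-coding gene.
Osmr region, chr15:6818986-6819086: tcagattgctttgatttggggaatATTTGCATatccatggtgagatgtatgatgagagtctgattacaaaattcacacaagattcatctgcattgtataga
Frem1 region, chr4:83003186-83003286: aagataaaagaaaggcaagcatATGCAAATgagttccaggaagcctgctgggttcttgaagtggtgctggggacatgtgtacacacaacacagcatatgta
Speer4f2 region, chr5:17249908-17250008: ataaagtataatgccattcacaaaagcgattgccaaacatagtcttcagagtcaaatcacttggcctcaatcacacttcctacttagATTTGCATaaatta
Pabpc4l region, chr3:47162487-47162587: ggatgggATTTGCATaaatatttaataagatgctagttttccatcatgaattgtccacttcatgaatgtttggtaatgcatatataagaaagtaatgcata
Mfsd8 region, chr3:40825863-40825963: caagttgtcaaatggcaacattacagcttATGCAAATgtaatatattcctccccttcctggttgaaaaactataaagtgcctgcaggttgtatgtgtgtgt
Slc4a3 region, chr1:76403294-76403394: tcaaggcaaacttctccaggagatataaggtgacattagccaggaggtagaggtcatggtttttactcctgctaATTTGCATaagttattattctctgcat
Ccdc70 region, chr8:22012240-22012340: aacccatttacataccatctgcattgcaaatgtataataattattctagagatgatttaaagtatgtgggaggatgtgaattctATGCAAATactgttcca
Cwf19l2 region, chr9:3429033-3429133: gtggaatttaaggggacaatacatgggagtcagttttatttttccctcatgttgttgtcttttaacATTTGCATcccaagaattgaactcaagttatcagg
Abhd17b region, chr19:21678833-21678933: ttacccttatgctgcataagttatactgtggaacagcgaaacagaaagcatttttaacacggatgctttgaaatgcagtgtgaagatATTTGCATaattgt
Srpx region, chrX:10030287-10030387: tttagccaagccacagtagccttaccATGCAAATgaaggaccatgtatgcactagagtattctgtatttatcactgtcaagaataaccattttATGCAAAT

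The strongest region of all, with a score of 1147.85 and 81 tags at its summit, lay in an intron of Osmr, the receptor subunit for oncostatin M, and its octamer was centred 22.5 bp from the summit. The second, in an intron of Frem1, an extracellular matrix protein gene, scored 1057.81 and held an octamer 24.5 bp from the summit. The region near Srpx was the only one of these 10 with a pair of octamers in the window, both on the plus strand. For distances, a coding start is the outermost start of a protein-coding gene. Starts of the gene's other transcripts count only among starts of any kind. The windows near Slc4a3 and Pabpc4l lay 857 kb and 714 kb from the nearest coding start, whereas the Mfsd8 window lay 21.0 kb away. The nearest annotated start of any kind lay 17.3, 38.1 and 5.05 kb from these windows. These windows were picked for their octamer, so they show what the top sites look like and not how common they are.

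The top regions without the octamer are shown for contrast, by the same rule and with the related words ATGCNAAT and ATGNTAAT in capitals where present.
Vgll4 region, chr6:114952434-114952534: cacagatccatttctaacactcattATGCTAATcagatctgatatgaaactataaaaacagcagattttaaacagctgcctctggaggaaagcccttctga
Vnn3 region, chr10:23841331-23841431: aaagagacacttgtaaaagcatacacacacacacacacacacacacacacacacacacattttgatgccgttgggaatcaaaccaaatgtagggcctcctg
Ncoa6 region, chr2:155464298-155464398: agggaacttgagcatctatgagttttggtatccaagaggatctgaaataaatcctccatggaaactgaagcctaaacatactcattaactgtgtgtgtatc
Ryr2 region, chr13:11879261-11879361: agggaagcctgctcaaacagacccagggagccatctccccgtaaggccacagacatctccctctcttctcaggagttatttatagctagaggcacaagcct

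The Vgll4 window held ATGCTAAT, which differs from the octamer at 1 base and matches both related words. The Vnn3, Ncoa6 and Ryr2 windows held none of the 3 forms within 50 bp, and the Vnn3 window ran through a CA repeat. Absence of these letters from a window says nothing about whether Oct4BiD was there. Of the 25 regions with the highest scores, 9 had the octamer within 50 bp, 12 had the octamer, ATGCNAAT, ATGNTAAT or the MORE element, and 22 had one of these within 200 bp.

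Other regions among the 25 were named after their nearest coding gene, at whatever distance. The region in an intron of Foxp1, a forkhead repressor, scored 885.5 with 95 tags at its summit, the most of the 25, and lay 472 kb from the nearest coding start. The region in an intron of Pou2f3, a POU factor of tuft cells, scored 812.65, and the one whose nearest coding start, 120.5 kb away, was that of Fgfr1, a fibroblast growth factor receptor, 772.7. For the Foxp1 and Fgfr1 regions the nearest annotated start of any kind lay 6.37 and 5.86 kb away. The regions near Kif11, a mitotic kinesin, and Chl1, a neural adhesion molecule, scored 947.48 and 925.49. Of the 25, 3 lay at promoters, that is within 2 kb of an annotated start of any kind, 12 in introns and 10 between genes. The 3 were those named after Chl1, Myocos and Abhd17b. Only for Myocos was the start within 2 kb the nearest coding start. For Chl1 and Abhd17b the nearest coding start, that is the outermost start of a coding gene, lay well beyond 2 kb. Whether their start within 2 kb belonged to another transcript of a coding gene is not given here. The remaining nearest genes were Nxnl2, Rdh14, Avpr1b, Tshz1, Nfe2l3 and Ttbk2, with scores of 751.92 to 902.13.

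The libraries differed in how many strong regions they held alone. Oct4BiD had 16055, native Oct4 2376, Sox2BiD 19330, Sox2 1813, NanogBiD 3993, Nanog 2164, Nr5a2 9626 and Nr5a2BiD 759. The Oct4BiD regions alone were 26.9% of the strong Oct4BiD regions, the highest share among the 8 libraries. Sox2BiD was close to it at 24.0%, and Nr5a2 came next at 14.9%. The lists held 54794 to 120594 peaks and their lowest summit heights were 6 to 10 tags, and the peak lists themselves carry no read totals. The read pairs that the study's reporting summary lists for each library differ between libraries. In that list the Oct4BiD library has the fewest pairs in total, whereas Nanog has the fewest uniquely mapped ones. A missing peak means that a region did not pass the caller's limit in that library, not that the factor was absent.

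The scores of the regions ran from 100 to 1147.85 with a median of 166 (quartiles 125 and 242), and the summits held 9 to 109 tags with a median of 21. Peaks spanned 266 to 3121 bp with a median of 816 bp. The 5 scores just inside the limit were 100 or 100.01, with 10 to 17 tags, and the 5 just outside were 99.98 or 99.99, with 12 to 24 tags. Strong regions shared by the 2 Oct4 libraries and no other, the closest comparison set, numbered 11837 and had a median score of 250. A further 16350 regions of Oct4BiD alone scored under 100.

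**Figure D1:**
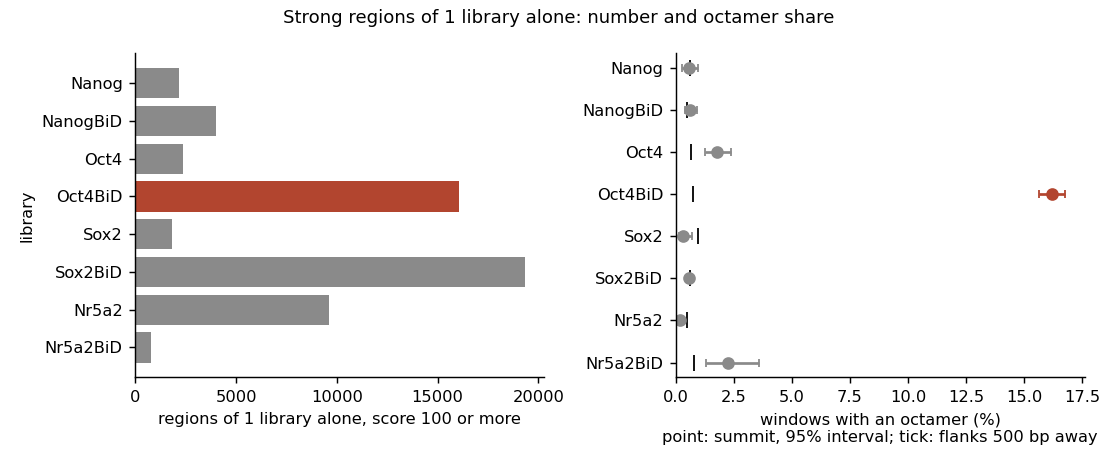
Left, number of strong regions held by 1 library alone for each of the 8 libraries. Right, share of their summit windows with an octamer (points with exact 95% intervals) and of the flanking windows (ticks), where Oct4BiD stands at 16.2% and the other 7 libraries between 0.177% and 2.24%.

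The octamer was frequent at the summits of the regions. It lay within 50 bp of the summit in 2600 of 16054 regions, 16.2% (exact 95% interval 15.6 to 16.8), against 0.747% of the windows of the same length centred 500 bp to either side. This is a 21.7-fold excess (95% interval 19.0 to 24.7). Intervals here and below cover counting error over regions of 1 library and not the spread between cultures. Sequence played no part in the choice of the regions.

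The strong regions of native Oct4 alone, a small part of its 29020 strong regions (8.19%), held the octamer less often, at 42 of 2375, or 1.77% (1.28 to 2.38), with 0.653% in the flanks. The ratio between the 2 sets of regions of a single Oct4 library was 9.16 (6.77 to 12.4). Among the regions of the other factors' libraries alone, Nr5a2BiD had the highest octamer share at 2.24% (1.31 to 3.56) and native Nr5a2 the lowest at 0.177% (0.103 to 0.283). Nr5a2BiD alone stood 2.83-fold above its flanks (1.36 to 5.90), near the 2.71-fold (1.71 to 4.30) of native Oct4 alone. Native Nr5a2 alone stood at 0.374-fold of its flanks (0.223 to 0.627). The octamer shares of NanogBiD, Nanog, Sox2BiD and Sox2 alone were 0.626%, 0.555%, 0.585% and 0.331%. Each of these was close to the 0.463% to 0.966% of its own flanks or below them.

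Within the Oct4BiD list, the octamer was more frequent in the regions of Oct4BiD alone than in those shared with others. Strong regions of both Oct4 libraries only held it in 10.4% (9.82 to 10.9), a difference of 5.83 percentage points (5.03 to 6.62) and a log2 ratio of 0.64 (0.55 to 0.74). Strong Oct4BiD regions shared with another factor held it in 8.17% (7.87 to 8.48), 8.02 points lower (7.38 to 8.67). The regions of Oct4BiD alone that scored under 100 held it in 11.4% (10.9 to 11.9). Thus the 4 sets of Oct4BiD regions all stood above their flanks, with 12.2-fold to 21.7-fold excess, and the strong regions alone had the highest share.

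The octamer share was higher at higher peak scores in both sets. In the regions of Oct4BiD alone it was 13.2% at scores of 100 to 150, 15.5% at 150 to 200, 17.7% at 200 to 300 and 23.6% (21.9 to 25.3) at 300 or more. In the regions of both Oct4 libraries it was 5.64%, 7.19%, 8.21% and 15.5% (14.5 to 16.6) in the same bins. The regions of both libraries had higher scores, so the log2 ratio within bins was larger than the pooled one in the lower 3 bins, at 1.22 (0.97 to 1.47), 1.11 (0.85 to 1.37) and 1.10 (0.90 to 1.31), and close to it at 0.60 (0.46 to 0.75) in the top bin. Among the 1000 regions with the highest scores, 262 had the octamer within 50 bp.

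**Figure D2:**
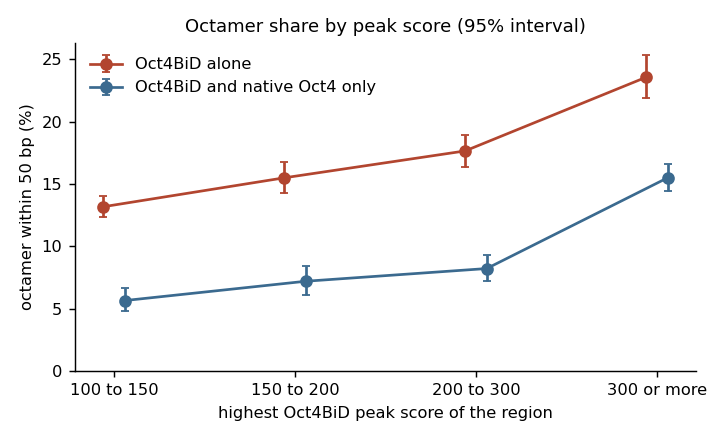
Share of regions with an octamer within 50 bp of the summit (vertical axis, percent) by the highest Oct4BiD score of the region (horizontal axis), for regions of Oct4BiD alone and of both Oct4 libraries only, with exact 95% intervals. The share of the regions of Oct4BiD alone goes from 13.2% to 23.6%, above the other set in each bin.

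Octamers were concentrated around the summit. There were 2948 with their centre within 50 bp, at a median distance of 25.5 bp, and 49.7% of them lay within 25 bp. An even spread over this window would give about the same median and share, so only the levels by distance bear on the concentration. The bins 20 to 40 bp on either side of the summit held 41.9 and 44.8 octamers per 1000 regions, while the bins from the summit to 20 bp on either side held 33.4 and 33.6. At 400 to 500 bp the level was 1.81 per 20 bp and 1000 regions. The highest level was therefore beside the summit and not on it. The regions of both Oct4 libraries held 27.0 and 24.2 in the outer pair of bins and 26.2 and 23.4 in the inner pair. In the regions of Oct4BiD alone, 1454 octamers within 50 bp lay on the plus and 1494 on the minus strand of the reference. Peaks carry no strand, so this near-even split says nothing about how the site is used. Over the whole peak span, 32.7% (32.0 to 33.5) of the regions held an octamer and 5.71% held more than 1, against 23.3% and 4.32% in the regions of both Oct4 libraries.

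**Figure D3:**
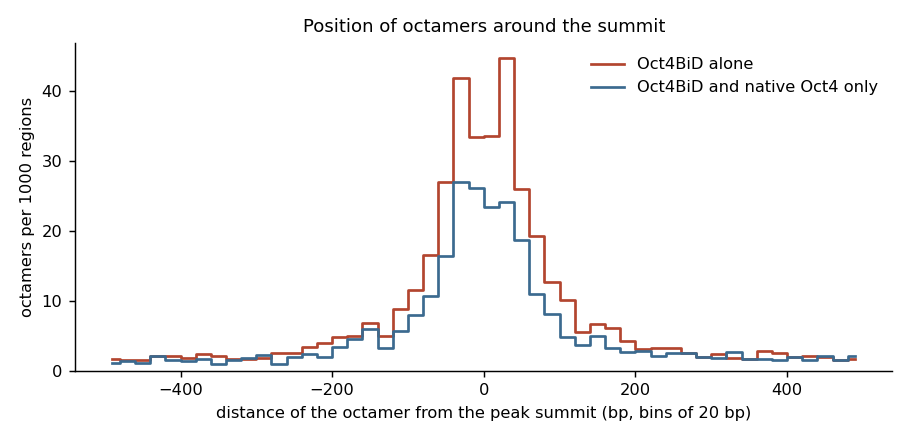
Octamers per 1000 regions (vertical axis) by distance from the summit in bins of 20 bp (horizontal axis), for regions of Oct4BiD alone and of both Oct4 libraries only. The former peak at 44.8 in the bin 20 to 40 bp after the summit, and both lie near 2 at the edges.

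Pairs of octamers were uncommon. There were 441 regions, 2.75%, with more than 1 octamer within 100 bp of the summit, against 1.89% of the regions of both Oct4 libraries. Of 491 neighbouring pairs, 358 lay on the same strand and 133 on opposite strands. The most frequent arrangement was the same strand at 68 bp, with 48 pairs, followed by 11 bp with 22 pairs and 66 bp with 21. Of the 119 same-strand pairs 60 to 75 bp apart, 95 lay in windows that were mostly masked repeat sequence, whereas this held for 5 of the 88 pairs up to 20 bp apart. The part of repeat copies in the wider spacing was not tested.

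The bases beside the octamer were not those of the genome at large. A T preceded the octamer in 55.4% of the 2946 octamers at the summits, against 21.0% of the 234246 octamers of the genome without chromosome Y, and a G followed it in 40.3% against 23.0%. The same held at the sites of both Oct4 libraries, with 52.7% and 37.6%. A T after the octamer was more frequent in the regions of Oct4BiD alone, at 27.8% against 20.7%, and an A less frequent, at 20.7% against 32.0%. Of all octamers of the genome, 1.26% lay at the summits of the regions of Oct4BiD alone and 4.36% at any Oct4BiD summit, against 1.10% at any native Oct4 summit. The Oct4BiD list held 93978 peaks and the native Oct4 list 54794, and the shares were not scaled to these numbers.

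Relatives of the octamer added to this. The word ATGCNAAT, which includes the octamer, lay within 50 bp of 22.2% of the summits (flanks 1.56%, 14.2-fold). The word ATGNTAAT, listed after the data were seen, lay in 11.6% (flanks 1.96%, 5.92-fold), and its form ATGCTAAT is also a case of ATGCNAAT. At least 1 of the octamer, these 2 words or the MORE element lay within 50 bp of 27.1% (26.4 to 27.8) of the summits against 2.97% of flanks, and within 200 bp of 48.7% against 12.1%. In the regions of both Oct4 libraries the first share was 19.0% (18.3 to 19.7). The other summits had none of these forms within 50 bp.

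Dimer-type elements were also above their flanks, but less frequent than in the regions of both Oct4 libraries. The MORE element, built of 2 copies of the site ATGCAT, lay at 37 of 16054 summits, or 0.230%, against 1 of 32108 flanking windows, a 74-fold excess (10.2 to 539). In the regions of both Oct4 libraries it lay at 68 summits, or 0.575%, a log2 ratio of -1.32 (-1.89 to -0.74). Its share was 0.208% in the regions of Oct4BiD alone that scored under 100 and 0.154% in strong Oct4BiD regions shared with another factor, and the intervals of both ratios included no difference. Native Oct4 alone had it in 9 of 2375 regions, 0.379%. Some words of 8 bases, named here after their values were seen, were likewise less frequent than in the regions of both libraries. ATGCATAT, 10.99-fold over its flanks, lay at 7.39% of the summits of Oct4BiD alone and at 12.9% of those of both libraries, CATGCATA at 4.48% and 10.9%, and ATGCGCAT at 0.872% and 2.29%. By contrast ATGCAAAT, ATGCTAAT (5.81% against 3.59%) and TGCAAATT (5.64% against 3.28%) were more frequent in the regions of Oct4BiD alone.

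Of 985 words of 8 bases present at 1% or more of the summits, 82 were at least 5-fold and 17 at least 10-fold more frequent there than in the flanks. The highest excess was that of TATGCAAA (14.8% of summits, 23.0-fold), followed by ATGCAAAT at 21.7-fold. The words TTATGCAA at 17.8-fold, TATGCATA at 14.6-fold and ATATGCAA at 14.4-fold came next. All of these contain ATGCA. GAATATTC, a palindrome named after its values were seen, was 9.73-fold more frequent (1.79% of summits).

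Sites of partner and somatic factors were less frequent than the octamer. The OCT-SOX composite (TTGT, any base, ATGCNAA) lay at 23 summits, 0.143% (flanks 0.0280%), a 5.11-fold excess (2.37 to 11.0). The SOX word CCATTGTT lay at 0.280%, below its flanks at 0.480%. Sox2BiD alone held the SOX word at 4.97%. NANOG (GCCATTA) was at 1.24% with 1.46-fold excess, and NR5A (CAAGGTCA) at 0.293%, 0.599-fold of its flanks. AP-1 (TGAGTCA), the site of a factor family that holds many enhancers of fibroblasts open, was at 2.18% (1.96 to 2.42) with 1.499-fold excess. The AP-1 share was 10.6% in the strong regions of Nanog alone, 7.42% in those of Sox2BiD alone and 2.62% (2.34 to 2.92) in those of both Oct4 libraries. TEAD (CATTCCA or CATTCCT) was at 5.07% with 1.44-fold excess. RUNX (AACCACA) was at 2.50%, 1.11-fold of its flanks (0.983 to 1.25), and KLF (GGGTGTGG) at 0.517%, 0.851-fold (0.659 to 1.10). Both of these intervals included no difference. CTCF, searched by its consensus, lay at 22 summits, 0.137% (flanks 0.0280%), a 4.89-fold excess (2.25 to 10.6).

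Beside the regions of both Oct4 libraries, TEAD (log2 ratio -0.30, -0.44 to -0.16) and RUNX (-0.44, -0.64 to -0.24) were less frequent, as was AP-1 (-0.26, -0.48 to -0.05), and NANOG was more frequent (0.54, 0.19 to 0.88). The intervals of SOX, NR5A, KLF, CTCF and the OCT-SOX composite included no difference. Strong Oct4BiD regions shared with another factor held AP-1 in 4.65%, so that the regions of Oct4BiD alone had 0.469 times (0.418 to 0.526) that share. All motifs were searched on both strands.

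**Figure D4:**
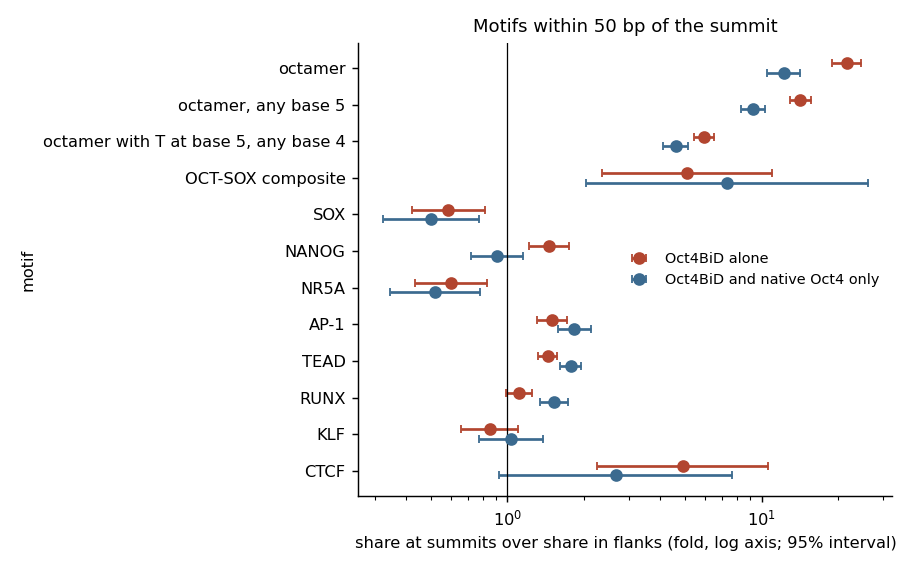
Share of summit windows with a motif over the share of flanking windows (horizontal log axis, fold, with 95% intervals) for 12 motifs, in regions of Oct4BiD alone and of both Oct4 libraries only. The octamer stands at 21.7-fold and 12.2-fold, and AP-1, TEAD and RUNX lie under 2-fold in both sets.

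The summits were rich in A and T. Their windows had a GC content of 38.5% ± 7.63 (SD over 16054 regions), like the 38.5% of the regions of both Oct4 libraries and below the 46.8% of strong Oct4BiD regions shared with another factor. There was no CpG in 51.4% of the windows. Masked repeat sequence made up 50% or more of the window in 14.3% (13.8 to 14.9) of the regions, against 20.9% (20.2 to 21.6) in the regions of both Oct4 libraries and 34.9% (32.9 to 36.8) in those of native Oct4 alone. The octamer share was 16.6% (16.01 to 17.3) in the windows that were mostly outside masked repeats, an alternative added after the data were seen.

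Most regions lay away from promoters. The summit was within 2 kb of an annotated start site in 10.8% (10.3 to 11.3), in an exon in 2.73%, in an intron in 45.5% and between genes in 41.0%. The median distance to the nearest start was 15.2 kb, and 19.3% lay more than 50 kb away. The promoter share was 1.22 percentage points (0.50 to 1.93) above the 9.56% of the regions of both Oct4 libraries, and 22.3 points (21.6 to 23.0) below the 33.1% of strong Oct4BiD regions shared with another factor. The first of these differences shrank to 0.287 points (-0.072 to 0.639) with promoters of 500 bp and to 0.665 points (-0.343 to 1.69) with a score limit of 200.

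The octamer was present at a higher share of the regions between genes than of those in introns, with intervals that did not overlap. It lay at 15.8% (14.1 to 17.6) of the regions at promoters, 14.8% (11.6 to 18.5) of those in exons, 15.3% (14.5 to 16.2) of those in introns and 17.4% (16.4 to 18.3) of those between genes. Strong Oct4BiD regions shared with another factor had it at 4.49% (4.10 to 4.90) of promoters but at 10.5% of sites between genes. Promoter regions of Oct4BiD alone thus differed from the shared promoter regions by more than the counting error.

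The regions were spread over the genome. Of 2645 windows of 1 Mb, 91.3% held at least 1, with a mean of 6.07 and at most 21. On the autosomes there were 4.95 to 7.54 per Mb, and on chromosome X 3.597. Chromosome X nevertheless had the highest proportion among chromosomes 1 to 19 and X of strong Oct4BiD regions that were of Oct4BiD alone, 37.4% (35.0 to 39.8), against 23.2% to 29.5% on the autosomes. The 3 densest windows, with 21 each, were chr10:97000001-98000000 with Dcn, Lum, Kera and Epyc, small leucine-rich proteoglycan genes of the extracellular matrix, chr12:52000001-53000000 with Arhgap5, Nubpl and Akap6, and chr3:68000001-69000000 with Schip1, Il12a and Ift80. The window chr2:74000001-75000000 with the Hoxd cluster held 19.

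Peaks of other libraries were often near. The closest peak of any other library began a median of 2.20 kb away, and 28.4% (27.8 to 29.2) of the regions had one within 1 kb. Native Oct4 had a peak within 1 kb of 4.25% (3.94 to 4.57), the lowest of the 7 libraries, and Sox2BiD of 12.4% (11.9 to 12.9), the highest. The same libraries were lowest and highest for the regions that scored under 100, at 5.24% and 12.5%. The numbers of peaks differ between these lists, from the fewest in native Oct4 to the most in Sox2BiD. Without the regions that had another library's peak within 1 kb, the octamer share was 16.1% (15.4 to 16.8).

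Because the regions were many, most genes had one in reach. Of 21951 protein-coding genes, 14136, or 64.4%, had a summit of these regions within 100 kb of the start site, and of all 55450 annotated genes 61.8% did. The share of protein-coding genes was 42.9% at 50 kb and 21.1% at 20 kb. Regions of both Oct4 libraries only were near 54.4% of protein-coding genes. Nearness does not assign a region to a gene, and genes that lie together share regions, so the shares for gene lists below are descriptions to be read against 64.4%.

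The most regions near 1 coding gene were 8, reached at 6 genes. They are Col1a2, a chain of type I collagen, a main matrix protein of fibroblasts, Cer1, a secreted Nodal and BMP antagonist, Arxes2, Cdrt4, Plcl2 and Scamp1. At Col1a2, 1 of the 8 had an octamer within 50 bp and 3 lay inside the gene, and 2 regions of both Oct4 libraries lay as near. Akap11, Arhgap5, Bend7 and Casd1, among others, had 7. Genes with long annotated spans held the most regions inside them: Gm20388 25, Fgfr2 21, Etl4 19, Ptprd 19, Lrmda 17, and Auts2, Lsamp, Rbms3 and Tenm2 16 each. Per length, Etl4 had 2.11 per 100 kb and Ptprd, a receptor tyrosine phosphatase of synapses, 0.837. Fgfr2 had 0.709 and Gm20388 0.564 per 100 kb, beside the mean of 6.07 per window of 1 Mb. The annotated spans of Gm20388 and Fgfr2 were 4435 and 2961 kb, and a count inside a span does not assign a region to that gene.

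Among 31 genes of core pluripotency, 16, or 51.6%, had at least 1 of the regions within 100 kb. Klf5, a Klf factor of naive cells, had 5, Dppa3 and Gdf3, its neighbour, 3 each, Dppa5a 3, Sox2 3, Klf4 2, Prdm14 2 and Nanog 2. Sall4, Klf2 and Tbx3 had 1 each. Pou5f1, Esrrb, Zfp42, Utf1, Lin28a and Nr0b1 had none, although Pou5f1 had 1 region of both Oct4 libraries and 2 shared with another factor. The share was below that of all coding genes, and its interval of 33.1 to 69.8 included it.

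Of 11 target, helper or somatic genes taken here from those named by the study, 10 had a region, or 90.9%. The interval of this share, 58.7 to 99.8, included the 64.4% of all coding genes. Among the 10 was Olig3, a bHLH factor of the neural tube, with 4 regions, of which 2 had an octamer. Sall4, Foxb1, Sox15, Mir302a, Dab2 and Thbd had 1 each and Esrrb none. At Dab2, an endocytic adaptor gene, 5 regions of both Oct4 libraries stood beside the 1 of Oct4BiD alone. The list leaves out other genes that the study named, such as Sox1, which had no region, and Sox3, which had 1. The study named its genes with results of these cells known, so the list is no independent evidence.

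Other lists stood on either side of 64.4%. The POU family had 12 of 15 genes with a region, led by Pou1f1 and Pou5f2 with 3, and the SOX family 14 of 19, led by Sox2 and Sox6 with 3. Genes for subunits of BAF and related SWI/SNF complexes had 16 of 20, with 4 each at Arid2, Pbrm1 and Smarcb1. Fibroblast and matrix genes had 19 of 28, with 4 at Pdgfra and 3 at Cdh11, neural lineage genes 13 of 20 and ribosomal protein genes 73 of 98. Muscle and heart genes had 7 of 10, with 4 at Tbx5, trophoblast and endoderm genes 9 of 14, epithelial genes 9 of 15, synapse and adhesion genes 10 of 20, AP-1 genes 5 of 10 and housekeeping genes 11 of 14. The intervals of all of these but the ribosomal protein genes (64.7 to 82.8) included the share of all coding genes.

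Some gene families in clusters differed more. Olfactory receptor genes had a region in reach in 280 of 1135 (24.7%), vomeronasal receptor genes in 30 of 331 (9.06%) and immunoglobulin variable segments in 31 of 216 (14.4%). For regions of both Oct4 libraries these shares were also low, at 12.5%, 11.2% and 9.26%, beside 54.4% of protein-coding genes. Histone genes had one in 16 of 67 (23.9%), whereas 68.7% of them had a region of both Oct4 libraries. For the 18 H2B genes, whose promoters are known octamer sites of POU factors, the numbers were 2 (11.1%) and 77.8%. Protocadherin genes showed the reverse order, with 37 of 69 (53.6%) against 8.70%, and the interval of the first share, 41.2 to 65.7, included 64.4%. All protein-coding genes had this order too, at 64.4% against 54.4%. Hox genes, with 25 of 39 (64.1%) against 48.7%, stood near those shares. The keratin genes had 33 of 53 (62.3%) against 71.7%, and the numbered Zfp genes 247 of 394 (62.7%) against 46.7%. The first share of each was also near 64.4%. Neighbours in a cluster see the same few regions, so these counts rest on fewer sites than genes.

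**Figure D5:**
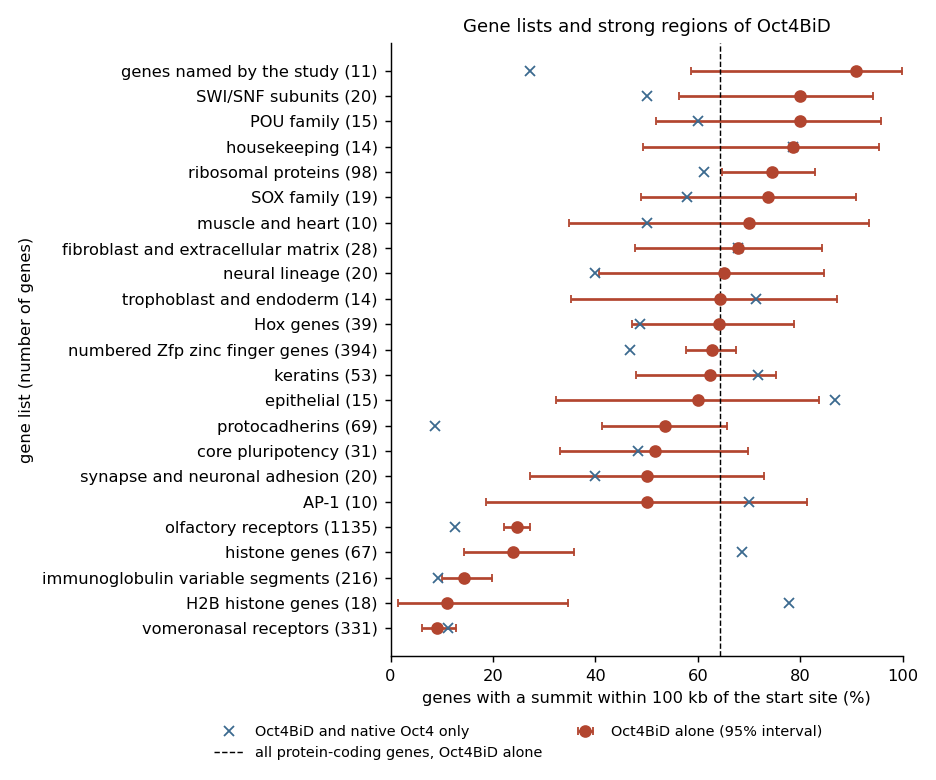
Share of the genes of 23 lists (horizontal axis, percent) with a summit within 100 kb of the start site, for regions of Oct4BiD alone (points with exact 95% intervals over genes) and of both Oct4 libraries only (crosses). The dashed line marks 64.4%, the share of all protein-coding genes, and the H2B histone genes lie at 11.1% with the cross at 77.8%.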

How the data were processed

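CUT&Tag with an antibody against Flag was analysed in 8 libraries, 1 per group. Per the labels and the methods, the authors used Trim Galore 0.6.4 for trimming and Bowtie2 2.4.5 for alignment to mm10. With SAMtools 1.16.1 they removed repetitive, mitochondrial and poorly mapped reads, and with MACS 1.4.2 they called peaks without a named control. The deposited score equals 10 times the negative log10 of the caller's p-value and was at least 50. The deposited summit height is a signal in whole tags that the authors did not scale to depth. The peak lists carry no read totals. The study's reporting summary lists read pairs for each library, but they were not used to scale any value, and a deeper library can pass more peaks at the same limit.

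Union regions, motif matches and gene distances were computed here in Python 3.11.15 (NumPy 2.4.6, pandas 2.3.3, SciPy 1.17.1, and matplotlib 3.10.9 for plots), with GRCm38 sequence and GENCODE M21 genes. Motifs were searched within 50 bp of the summit of the highest Oct4BiD peak and in flanks centred 500 bp to either side. Shares have exact (Clopper-Pearson) 95% intervals, ratios log-scale and differences Newcombe intervals. With 1 library per group there was no test. The functions were tested on simulated data. The regions, motifs and gene lists were chosen with earlier results of these data known. Named genes were those nearest the 25 highest scores, those with the most regions near or inside them and the top 3 of each of 23 lists, and other genes were named after their values were seen. Alternatives for merging, score limit, window, motif, flank, promoter and gene distance were tried, and rules without 1 library.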

Additional observations from a re-analysis of the deposited data

How the results depend on the processing

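The excess of the octamer at the summits and its higher share beside the regions of both Oct4 libraries kept their direction under all alternatives run. With a score limit of 50 or 200 there were 32405 or 5849 regions, with octamer shares of 13.8% and 20.1%. Windows of 25 and 100 bp gave octamer shares of 7.41% and 23.4%, and the 100 bp window a 14.5-fold excess over flanks. ATGCNAAT gave 22.2% and 14.2-fold. The log2 ratio against the regions of both Oct4 libraries was 0.51 with the 25 bp window, and 1.22, 1.11 and 1.10 within scores of 100 to 150, 150 to 200 and 200 to 300. The promoter share was 10.1% with gaps up to 500 bp merged and 10.003% with the score limit of 200. It was 2.44% and 23.2% with promoters of 500 bp and 5 kb, and 6.73% with only the start sites of all transcripts of coding genes. With promoters of 500 bp, its difference from the regions of both Oct4 libraries was 0.287 points. The share of protein-coding genes in reach was 42.9% at 50 kb and 21.1% at 20 kb.

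Leaving 1 library out of the rule gave 16184 to 28156 regions and octamer shares of 13.7% to 16.2%. Both extremes, 28156 regions and 13.7%, came without native Oct4. In leave-one-out of the libraries of other factors, added after the data were seen, the log2 ratio was 0.63 to 0.65 and the difference of promoter shares 1.20 to 1.35 points. No paired analysis was possible because the labels carry no replicate numbers and each group holds 1 library. The peak lists carry no read totals and were not scaled to depth here, which limits what the absence of a peak means, and the spread between cultures is not measured.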
